A study of Mus musculus with 22 samples.

Results

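The change from the first to the last sorted stage was followed in Vg2+ gamma-delta thymocytes, T cells developing in the thymus whose receptor is built with the gamma-chain segment called Vg2. The first stage was CD24+CD73- (3 arrays) and the last CD24-CD73+ (4 arrays), so that 7 of the 22 arrays of the study entered the comparison directly. The arrays of the comparison were taken by these sort labels, with no measured value in the rule. All cells came from the thymus of female C57BL/6 mice aged 8 weeks that received no treatment. The labels record no transgene or mutant allele in any group. The same stages of Vg1.1+ thymocytes (4 and 4 arrays) were used to show where the Vg2+ course differed, and the Vg2+ CD24+CD73+ stage between both ends (4 arrays) is described but was not tested. The labels call the replicates biological but do not say whether each came from its own mouse or from pooled mice, so p-values measure only the spread between these samples.

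CD24 is a surface glycoprotein that thymocytes lose as they mature, and CD73 is an ectoenzyme, encoded by Nt5e, that gamma-delta thymocytes gain after they have received a signal through their T-cell receptor. Unlike most alpha-beta T cells, many gamma-delta T cells leave the thymus already equipped to make a given cytokine. Vg2+ cells are known as a source of both interleukin-17, made under transcription factors that include Sox13, Sox4 and Maf, and interferon-gamma, made under Tbx21 and Eomes. Maf, Tcf7, Zbtb16, the gene of CD24 and the gamma-chain segments were not analysed here, because none had a probe set with 1 gene symbol.

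Values are log2 expression values, on which 1 unit is a 2-fold difference, and a difference is the mean of the last stage minus the mean of the first. A gene was called higher or lower when limma's adjusted p was under 0.05. Nt5e, used as a check of the sort, read 3.86, 3.04 and 3.36 on the first-stage arrays and 7.41, 6.97, 7.51 and 7.42 on the last-stage arrays. Since CD73 was used for the sort, this is no finding about the stages. The CD3 chains Cd3d, Cd3e and Cd3g, which carry the signal of every T-cell receptor, read above 9 on every array of both stages. Over the 8545 tested genes, arrays of the first stage correlated with each other at r = 0.978 to 0.983, arrays of the last stage at 0.956 to 0.983, and arrays of different stages at 0.868 to 0.906. Replicate 1 of the last stage stood apart: for 43.8% of the 608 called genes that differed by at least 1 log2 unit it was the last-stage array nearest the first stage, against 12.2% to 24.8% for the other arrays. Without it 1900 genes were called in place of 2051. That count lay within the range for the other last-stage arrays: 1789, 1979 and 1778 without replicate 2, 3 and 4.

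The last stage differed from the first in 2051 of 8545 tested genes (24%), with 945 higher (11.1%) and 1106 lower (12.9%). Rises were larger than falls: 96 genes were higher by at least 2 log2 units and 36 lower, and 11 were higher by at least 4 units and 5 lower. The largest rise was that of Il23r, the receptor chain for interleukin-23, and the largest fall that of Etv5, an ETS-family transcription factor. The median difference of all tested genes was -0.03, with a median standard error of 0.16. All arrays of the last stage lay above all arrays of the first in 1292 genes (15.1%) and below them in 1585 (18.5%). The counts of each gene list below are to be read against 11.1% higher and 12.9% lower over all tested genes. For each gene list described below as having 0 genes called in a direction, limma's unadjusted p under 0.05 also gave 0 genes in that direction, except where another count is given. In bulk samples such as these, a lower value from fewer cells of a type and one from less RNA per cell cannot be told apart.

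**Figure D1:**
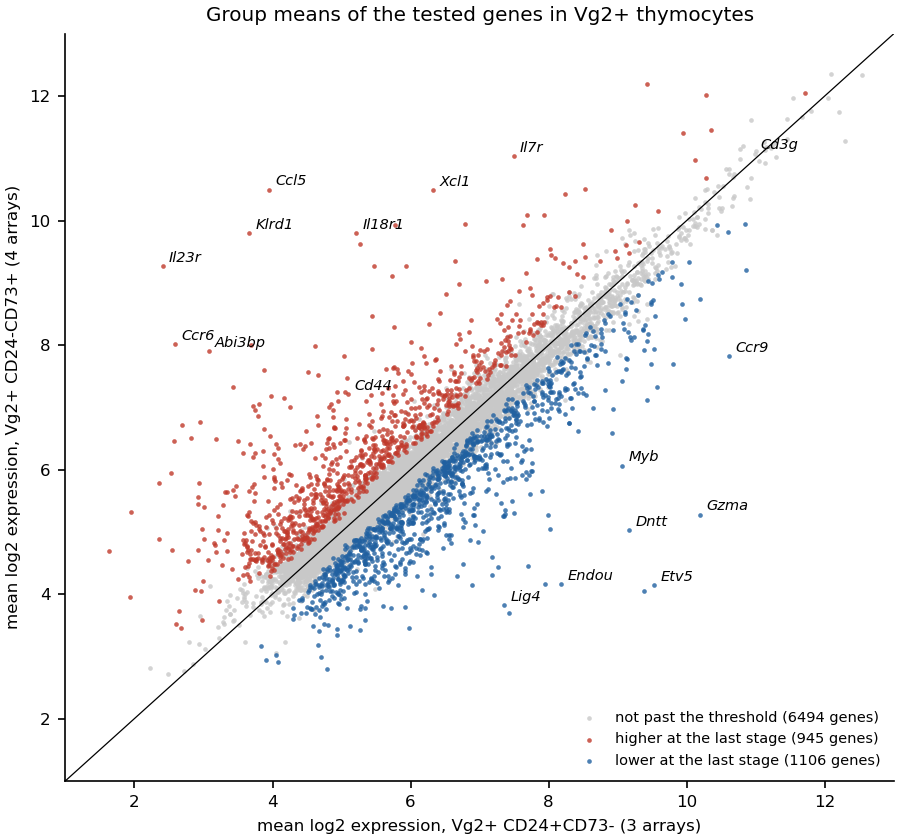
Mean log2 expression of each tested gene at the CD24+CD73- stage (x axis, 3 arrays) against the CD24-CD73+ stage (y axis, 4 arrays) of Vg2+ thymocytes, with the line of equality. The 945 genes higher at the last stage (red) include several that lay near the bottom of the scale at the first stage, such as Il23r (mean 2.41 to 9.27), and the 1106 lower genes (blue) include Etv5 (mean 9.53 to 4.14).

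The 3 largest rises were those of a cytokine receptor, a chemokine and a killer lectin-like receptor. Il23r read 2.61, 2.38 and 2.24 at the first stage and 8.91, 9.35, 9.23 and 9.58 at the last, a difference of 6.86 (SE 0.28, adjusted p = 1.28e-13). Ccl5, a chemokine released by cytotoxic lymphocytes, read 4.08, 3.55 and 4.20 and then 10.33, 10.73, 10.69 and 10.24, a difference of 6.55 (SE 0.28). Klrd1, which codes for the CD94 chain of an inhibitory and activating receptor for MHC class I, read 3.68, 3.78 and 3.53 and then 9.70, 9.81, 9.87 and 9.80, a difference of 6.13 (SE 0.22). These genes were chosen by rule for the size of the difference among genes without overlap between the groups. The rest of the 15 largest rises, from 5.43 to 3.81 log2 units, were those of Ccr6, Abi3bp, Il18r1, Tmem176a, Jaml, Xcl1, Id2, Socs2, Nt5e, Cysltr1, Ccr2 and Cxcr3. The rise of Nt5e is no finding, since CD73 was used for the sort.

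The 15 largest falls ran from -5.39 to -2.75. Etv5 read 9.17, 9.99 and 9.43 at the first stage and 3.91, 3.96, 4.72 and 3.99 at the last, a difference of -5.39 (SE 0.22, adjusted p = 1.24e-13). Cpa3, a protease of mast cell granules that early T-cell precursors also express, read 9.50, 9.61 and 9.03 and then 4.47, 3.80, 4.00 and 3.94, and fell by 5.33. Gzma, the serine protease granzyme A, read 10.04, 10.49 and 10.07 and then 5.72, 4.95, 5.48 and 4.96, and fell by 4.92. The 15, chosen by the same rule, also included Dntt, Endou, Slc15a1, Clec12a, Lig4, Mpp4, Myb, Aqp11, Arpp21, Gem, Ccr9 and Gria3. Among the 15, the last-stage arrays were spread most widely for Dntt and Aqp11, in which replicate 1 of the last stage stayed highest (6.67 against 4.15 to 5.12, and 6.38 against 4.33 to 4.77).

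**Figure D2:**
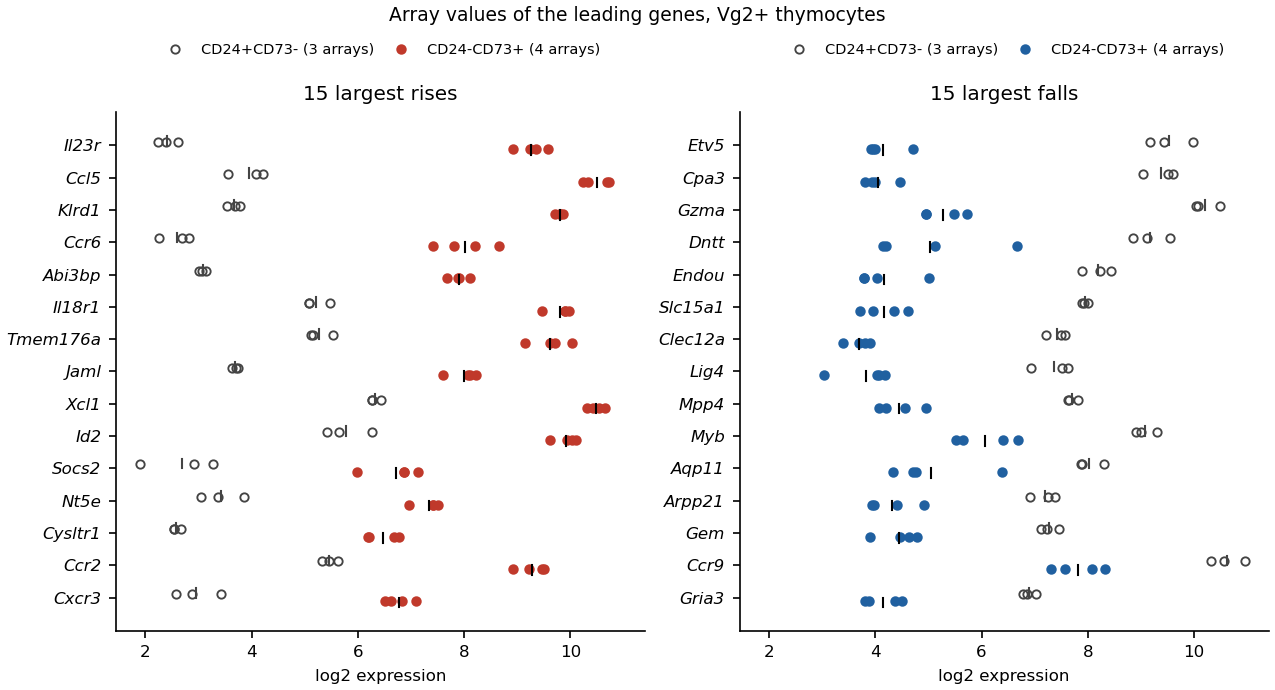
Log2 expression of each array for the 15 genes that rose most (left) and the 15 that fell most (right); open circles are the 3 CD24+CD73- arrays, filled circles the 4 CD24-CD73+ arrays and short vertical lines the group means. The 30 genes were chosen without overlap between the groups, and 1 last-stage array stands apart from the other 3 in Dntt (6.67) and in Aqp11 (6.38).

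Genes of the interleukin-17 programme moved in both directions. Of 16 tested genes of this list, 9 were higher and 3 lower, against 11.1% and 12.9% of all tested genes, and the median difference was 0.94 against -0.03 over all tested genes. The receptors rose: besides Il23r these were Ccr6, a chemokine receptor that guides interleukin-17 producers to skin and mucosa, Il1r1, the signalling receptor for interleukin-1, and Il17re, a receptor chain for interleukin-17C. Ccr6 read 2.26, 2.82 and 2.69 and then 7.41, 7.81, 8.20 and 8.66, a difference of 5.43 (SE 0.29, adjusted p = 1.07e-11). Il1r1 read 6.72, 6.65 and 6.72 and then 8.66, 9.01, 8.90 and 9.35, a difference of 2.28 (SE 0.25). Il1r1 lay above the first stage on every last-stage array, and Il17re rose by 1.52.

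The cytokine genes themselves also rose, by less than Il23r. Il17a read 3.44, 3.59 and 3.83 at the first stage and 4.65, 5.47, 4.71 and 4.61 at the last, a difference of 1.24 (SE 0.25, adjusted p = 0.000694). Every last-stage array lay above the first stage, with replicate 2 apart from the rest. Il17f went from a mean of 4.08 to 6.35, a difference of 2.28 (adjusted p = 1.57e-08). Tmem176a and Tmem176b, a neighbouring pair of genes on chromosome 6 for ion channel-like membrane proteins, rose by 4.36 and 3.34. Of the transcription factors of this list, Ahr, a sensor of aromatic ligands, rose by 0.63. Sox13 and Sox4 fell by 0.84 and 2.09, Etv5 fell as described, and Rora was at 7.17, 7.19 and 7.05 and then 6.89, 6.66, 6.67 and 6.78, a difference of -0.39 that did not pass the test (adjusted p = 0.0583). The groups of Rora did not overlap. Of 18 alternative limma fits, Rora passed as lower only without the 2 arrays of narrowest spread (adjusted p = 0.00716), with array weights (0.0055) and from the compared groups only (0.0381). It did not pass in the rest, among them the replicate block, cyclic loess and each array left out. Blk, a Src-family kinase of this lineage, had means of 8.42 and 8.56 (difference 0.15, adjusted p = 0.808) at the end stages and 4.80 at the stage between them.

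Killer lectin-like receptors and their signalling adaptors were higher at the last stage in all 9 tested genes of 11 on the array, with a median difference of 3.36. A gene entered the test only if at least 3 arrays read above the median of the table, so genes of a family that are low everywhere are left out of such counts. The 4 last-stage arrays alone can meet this rule, so a gene low at the first stage can enter by being high later. This favours rises in such a count. Of all 945 genes called higher, 297 had a first-stage mean under that median. These receptors, best known from natural killer cells, bind MHC class I or lectin-like ligands, and the 6 called receptor genes all lie on chromosome 6. Klrb1a, coding for an NKR-P1 receptor, read 2.75, 2.74 and 2.98 and then 6.52, 6.34, 6.74 and 6.40, a difference of 3.68 with no overlap between the groups. Klri1, Klre1, Klrb1f and Klrc2 rose by 3.37, 3.3, 2.98 and 2.52. The adaptors Tyrobp, Fcer1g and Hcst, which give such receptors their signalling motifs, rose by 3.36, 3.37 and 1.1.

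In the type 1 and cytotoxic list 10 of 16 tested genes were higher and 2 lower. Xcl1, a chemokine that attracts cross-presenting dendritic cells, read 6.27, 6.27 and 6.44 and then 10.54, 10.42, 10.65 and 10.32. The difference was 4.16 (SE 0.21). Cxcr3, a chemokine receptor of type 1 lymphocytes, rose by 3.81, Slamf7 by 2.70, Crtam by 2.51 and Fasl, the ligand of the death receptor Fas, by 1.09. The master regulators changed by less: Tbx21 read 4.45, 4.51 and 4.35 and then 4.80, 5.59, 4.88 and 5.20, a difference of 0.68 (adjusted p = 0.00273), and Eomes rose by 1.03. Ifng, the gene of interferon-gamma, went from a mean of 4.25 to 5.23 (adjusted p = 0.0082, and 0.0527 at its highest when 1 array was left out). Against these rises stood Gzma, and Il12rb2, a chain of the interleukin-12 receptor, which fell by 1.30. Nkg7, Stat4 and Ccl4 did not pass the test, with differences of 0.16, 0.01 and -0.08.

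**Figure D3:**
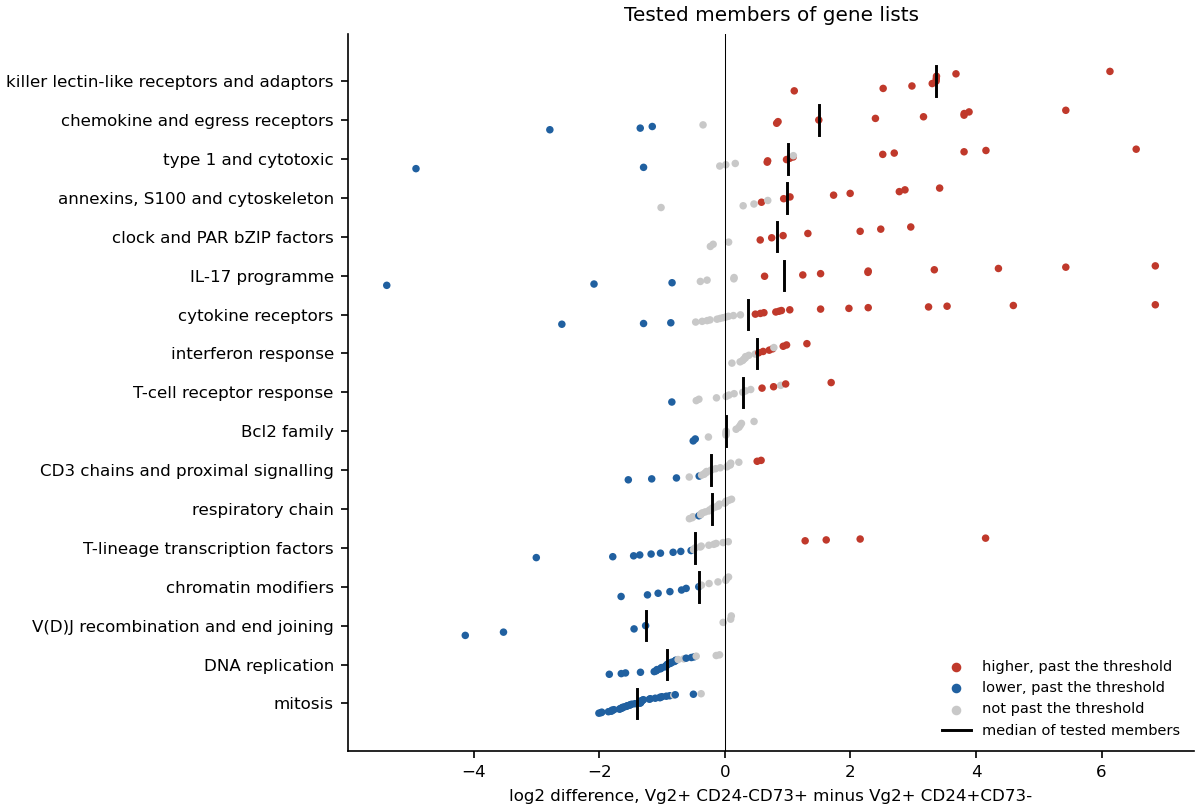
Log2 difference between the last and the first stage (x axis) of each tested member of 17 gene lists; points in red and blue passed the test as higher or lower, grey points did not, and the black bars are list medians. Killer lectin-like receptors and adaptors lie to the right of 0 (9 of 9 higher), mitosis genes to the left (38 of 40 lower), and the T-lineage transcription factors on both sides.

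Receptors for homing and egress moved in both directions. Among 13 tested chemokine and egress receptors, 9 were higher and 3 lower. Besides Ccr6 and Cxcr3, the rises were those of Ccr2, which guides cells out of blood to inflamed tissue (3.81), Cysltr1, a leukotriene receptor (3.89), Cxcr6 (3.16), Gpr183, an oxysterol receptor (2.40), S1pr1, the sphingosine phosphate receptor needed to leave the thymus (1.5), and S1pr4 (0.85). Ccr10 also passed (0.82) but lost its call in 5 of 7 fits with 1 array left out, up to an adjusted p of 0.189. Ccr9 holds thymocytes near its ligand in the thymic cortex and later draws T cells to the gut. It read 10.56, 10.95 and 10.32 and then 8.08, 7.32, 8.32 and 7.58, and fell by 2.79. Cxcr4, another receptor of cortical thymocytes, fell by 1.16, and Ptger4, a prostaglandin receptor, by 1.35. Klf2, the factor that drives S1pr1, rose by 0.75.

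Adhesion genes rose or did not pass. Of 14 tested integrin and adhesion genes 5 were higher and 0 lower. Cd44, the hyaluronan receptor that marks effector and memory T cells, read 5.19, 5.17 and 4.92 and then 7.01, 7.29, 7.29 and 7.27, a difference of 2.12 (SE 0.10, adjusted p = 1.38e-12). The groups were far apart and the arrays of each stage close together. Abi3bp, an extracellular matrix-binding protein, read 3.01, 3.07 and 3.15 and then 7.90, 7.68, 7.89 and 8.12, a difference of 4.82 and the smallest adjusted p of the named genes (3.43e-16). Itgae and Itgb7, which pair to hold T cells in epithelium, rose by 1.25 and 1.48, and Itga6 by 0.60. The count of higher genes in this list reached 11 in a fit with the SD of log2 values on each array as covariate. Among annexin, S100 and cytoskeleton genes 8 of 12 were higher, led by Anxa1, Lgals3 and S100a6 (3.42, 2.87 and 2.78). Anxa1 read 2.47, 2.17 and 2.44 and then 4.20, 6.28, 6.16 and 6.47, so that replicate 1 of the last stage lay between the other last-stage arrays and the first stage.

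Of 28 tested cytokine receptor genes 14 were higher and 3 lower. Il7r, the receptor chain for the survival cytokine interleukin-7, went from a mean of 7.50 to 11.03, a difference of 3.54 (adjusted p = 2.31e-12). Il18r1, a receptor chain for interleukin-18, read 5.48, 5.07 and 5.07 and then 9.47, 9.89, 9.96 and 9.89. It rose by 4.59 and its partner Il18rap by 3.24. Il2ra, the high-affinity chain for interleukin-2, rose by 1.98. Il17rb, a receptor for interleukin-25, read 7.08, 7.20 and 7.28 and then 4.88, 4.18, 4.83 and 4.46, and fell by 2.60. Il6st, the shared signalling chain of the interleukin-6 family, fell by 0.86. Kit, the stem cell factor receptor, had means of 5.95 and 5.48 (difference -0.47, adjusted p = 0.07) and stood at 7.50 between them.

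Of 7 tested genes of the SOCS family, feedback inhibitors of cytokine signalling, 3 were higher and 1 lower. Socs2, an inhibitor induced through STAT5, read 2.92, 1.90 and 3.27 and then 5.98, 6.87, 6.86 and 7.12, a difference of 4.01 (SE 0.44), and Cish, induced the same way, rose by 1.88. Socs1, Socs4 and Socs5 did not pass (0.04, 0.07 and 0.16), and Socs3 and Socs7, at 0.70 and -0.46, passed but not without each array in turn, with adjusted p up to 0.121 and 0.0672. The groups did not overlap for Cish, and the first-stage arrays of Socs2 were spread over more than 1 log2 unit. In the TNF superfamily 7 of 15 tested genes were higher and 1 lower, with rises of 2.20 for Tnfsf8, 2.12 for Cd40lg, 1.79 for Tnf and 1.09 for Ltb. Tnfsf11, the ligand RANKL with which T cells help medullary epithelium to mature, read 6.87, 7.26 and 6.64 and then 5.51, 5.07, 5.43 and 5.49, and fell by 1.55. Among cytokine and chemokine genes 9 of 14 tested were higher and 0 lower.

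Among costimulatory and inhibitory receptors 4 of 9 tested genes were higher: Cd7 (2.70), Icos (2.29), Cd160 (1.82) and Lag3 (0.83). Icos, a costimulatory receptor related to Cd28, read 7.81, 7.56 and 7.52 and then 9.76, 10.04, 9.95 and 9.94, with no overlap. Pdcd1, which codes for PD-1, was lower, with a difference of -0.83 (adjusted p = 0.0214), but the adjusted p was 0.121 without replicate 2 of the first stage and 0.0636 without replicate 2 of the last. In the SLAM family, some of whose receptors signal through the adaptor SAP during innate-like T-cell development, Slamf7, Cd48, Cd84 and Ly9 rose by 2.70, 1.11, 0.74 and 0.50. Sh2d1a, which codes for SAP, fell by 1.45 and Slamf1 by 0.86.

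Transcription factors of the T lineage were lower more often than higher, with 9 lower and 4 higher of 23 tested. Id2, an inhibitor of E proteins that rises in innate-like and effector lymphocytes, read 6.26, 5.42 and 5.64 and then 9.62, 10.10, 9.95 and 10.04, a difference of 4.15 (SE 0.25, adjusted p = 5.72e-11). Its relative Id3, induced by T-cell receptor signals, read 8.54, 8.46 and 7.95 and then 6.56, 7.04, 7.86 and 7.11, a difference of -1.18 (adjusted p = 0.0415) that lost its call in 5 of 7 fits with 1 array left out, up to an adjusted p of 0.134. The E protein gene Tcf12 fell by 1.36. Gata3, needed for T-cell commitment, read 9.30, 9.74 and 9.43 and then 7.73, 7.41, 7.86 and 7.80, and fell by 1.79 with no overlap. Myb, a factor of proliferating progenitors, went from a mean of 9.07 to 6.06 and fell by 3.01. Tox, Lef1 and Bcl11b, which act during thymic T-cell development, fell by 1.45, 1.03 and 0.83. Hlf, Hhex and Zbtb7b rose by 2.15, 1.61 and 1.28.

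Factors of the circadian clock and the PAR bZIP family rose in 7 of 10 tested genes, with 0 lower. Nfil3, a bZIP repressor needed for innate lymphoid development, read 3.42, 3.23 and 3.83 and then 6.30, 6.60, 6.36 and 6.56, a difference of 2.96 (SE 0.22). Bhlhe40, a repressor that supports cytokine production by T cells, read 3.89, 3.67 and 3.60 and then 5.49, 6.62, 6.09 and 6.60, a difference of 2.48. Both genes lay above the first stage on every last-stage array. Of the core clock, Nr1d2, Clock, Arntl and Cry1 rose by 1.32, 0.93, 0.74 and 0.56, whereas Per1 and Dbp, with differences of 0.06 and -0.23, did not pass the test. The labels used here give no hour of collection.

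Genes of mitosis fell together: 38 of 40 tested genes were lower and 0 higher, against 12.9% of all tested genes called lower, with a median difference of -1.39. Kif11, the motor that separates spindle poles, read 7.53, 7.65 and 7.24 and then 6.11, 4.75, 5.90 and 5.24, and fell by 1.97 (SE 0.27, adjusted p = 9.19e-06). Top2a, the topoisomerase that untangles sister chromatids, read 8.96, 9.12 and 8.72 and then 7.36, 6.53, 7.33 and 6.67, and fell by 1.96. The groups of both genes did not overlap. Kif23, Nuf2, Cdk1 and Ccna2, which act in cytokinesis, at the kinetochore and as the mitotic kinase with its cyclin, fell by 2.01, 1.86, 1.81 and 1.80. The proliferation marker Mki67 fell by 1.11. Cenpa and Cdc20, the 2 genes of the list that did not pass, had differences of -0.82 and -0.38.

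DNA replication genes were lower in 25 of 30 tested and higher in 0, with a median of -0.92. Uhrf1, which copies DNA methylation after replication, fell by 1.84, Rrm1, a subunit of the reductase that makes deoxynucleotides, by 1.65, Gins1 of the replicative helicase by 1.35 and Cdc45 by 1.13. Rrm1 read 7.74, 7.85 and 7.69 and then 6.05, 5.70, 6.57 and 6.12, with no overlap. Among chromatin modifiers 7 of 13 were lower and 0 higher, led by Ezh2, the histone methyltransferase of Polycomb, which read 8.67, 8.67 and 8.57 and then 7.23, 6.74, 7.13 and 6.83 and fell by 1.65. Hdac9, Hdac7 and Dnmt3a fell by 1.23, 1.06 and 0.88. Of 16 cell cycle brakes 4 were higher and 4 lower, against 11.1% and 12.9% of all tested genes. Without each array in turn the number lower was 1 (replicate 2 or 3 of the first stage) to 3 (replicate 1 of the last). Klf6 and Tob1 rose by 1.69 and 0.48 and Ccng2 fell by 1.43, while Cdkn1b and Rb1 had differences of -0.06 and 0.15 that did not pass.

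The promoters of Kif11, Top2a, Cdk1 and Prc1 are shown because these are the mitosis genes with the largest falls that hold both the CHR element TTTGAA and the CCAAT box, elements through which cell cycle genes are switched. Each line gives the 250 bases before the gene start from RefSeq on build GRCm38.p6, 5′ to 3′ on the strand of the gene, with both elements on either strand in capitals (TTCAAA and ATTGG are matches on the other strand). The windows are chr19:37376132-37376381 on the plus strand (Kif11), chr11:99024190-99024439 on the minus strand (Top2a), chr10:69352913-69353162 on the minus strand (Cdk1) and chr7:80294226-80294475 on the plus strand (Prc1).
Kif11: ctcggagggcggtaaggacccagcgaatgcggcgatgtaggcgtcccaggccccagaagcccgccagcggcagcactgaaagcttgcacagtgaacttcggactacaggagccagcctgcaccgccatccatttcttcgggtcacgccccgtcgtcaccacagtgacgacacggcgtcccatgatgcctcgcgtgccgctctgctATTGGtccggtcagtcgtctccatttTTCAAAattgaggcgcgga
Top2a: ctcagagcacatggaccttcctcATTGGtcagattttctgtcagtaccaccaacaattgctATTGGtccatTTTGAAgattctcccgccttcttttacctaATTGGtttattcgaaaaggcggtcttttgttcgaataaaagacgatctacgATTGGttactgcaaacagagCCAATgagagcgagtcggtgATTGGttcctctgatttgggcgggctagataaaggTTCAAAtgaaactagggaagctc
Cdk1: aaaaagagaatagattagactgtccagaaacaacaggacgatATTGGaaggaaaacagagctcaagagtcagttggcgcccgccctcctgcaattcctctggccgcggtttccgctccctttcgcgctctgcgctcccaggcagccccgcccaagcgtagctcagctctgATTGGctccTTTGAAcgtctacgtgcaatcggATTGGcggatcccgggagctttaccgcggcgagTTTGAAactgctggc
Prc1: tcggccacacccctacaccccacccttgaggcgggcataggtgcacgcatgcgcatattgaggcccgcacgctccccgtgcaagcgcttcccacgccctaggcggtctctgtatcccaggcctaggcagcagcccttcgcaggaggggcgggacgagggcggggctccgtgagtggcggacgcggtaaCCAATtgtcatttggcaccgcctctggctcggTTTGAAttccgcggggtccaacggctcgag
The TTTGAA nearest the gene began 19, 23, 15 and 30 bases before the start in Kif11, Top2a, Cdk1 and Prc1, and the nearest CCAAT box 45, 58, 48 and 62 bases before it. TTTGAA was present in 12 of 34 promoters (35.3%) of the 31 called mitosis genes that were matched by symbol, in 3 of 25 promoters (12%) of called DNA replication genes and in 16.0% of all 32851 promoters of the same length searched. CCAAT was present in 23 of those 34 (67.6%), in 17 of 25 promoters (68%) of those DNA replication genes and in 33.8% of all promoters. Both elements were present in 11 of 34 mitosis promoters (32.4%) and in 5.55% of all. Both elements were searched on both strands, no TTTGAA shared a base with a CCAAT in the windows shown, and the shares describe letters only.

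Genes of V(D)J recombination and end joining, which assemble the receptor genes, were lower in 4 of 7 tested and higher in 0. Dntt, the terminal transferase that adds untemplated bases at the joints, read 8.85, 9.55 and 9.11 and then 6.67, 4.15, 5.12 and 4.19, and fell by 4.14 (SE 0.45, adjusted p = 4.36e-07). Lig4, the ligase that closes the joints, read 7.51, 7.63 and 6.94 and then 4.07, 3.04, 4.02 and 4.18, and fell by 3.53. Both genes were chosen among the largest falls without overlap between the groups. Xrcc6, which codes for Ku70, fell by 1.45, whereas its partner Xrcc5 and the kinase gene Prkdc had differences of 0.09 and 0.10 that did not pass. Rag2 was under the table's median in both groups and was not tested.

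Among CD3 chains and proximal signalling genes 2 were higher and 4 lower of 22 tested, a share near the 24% of all tested genes, and the median of -0.22 turned to 0.02 in a fit with the array SD as covariate. Cd3e went from a mean of 10.10 to 10.02 (last-stage arrays 9.60, 9.60, 10.62 and 10.28), a difference of -0.07 with a standard error of 0.50 (95% interval from -1.11 to 0.96). Ptprc, which codes for CD45, read 10.12, 10.25 and 9.93 and then 9.98, 9.97, 10.43 and 10.14, a difference of 0.03 (95% interval from -0.38 to 0.44). The groups overlapped in both. Cd247, the zeta chain of the CD3 complex, fell by 1.17, Themis, which tunes receptor signals in thymocytes, by 1.54, and Ubash3a by 0.77. Of 15 genes induced by receptor signals 4 were higher and 1 lower, against 11.1% and 12.9% of all tested genes. The number higher was 2 without replicate 2 or replicate 3 of the first stage or replicate 3 of the last. Spry2 rose by 1.69, Nr4a2 by 0.97 and Irf4 by 0.59, and Dusp6 fell by 0.85. The call of Nr4a2 (adjusted p = 0.0282) was lost in 4 of 7 fits with 1 array left out, up to 0.159. Its relatives Nr4a1 and Nr4a3, and Egr2, did not pass (0.02, 0.06 and 0.89). Egr2 was spread from 4.83 to 5.55 at the first stage and from 5.71 to 6.87 at the last. Of 18 alternative limma fits, Egr2 passed as higher only from the compared groups only (adjusted p = 0.0221), with array weights (0.0497) and with the array SD as covariate (0.00879). It did not pass in the rest, among them the replicate block, cyclic loess and each array left out.

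In the Notch list 3 of 9 tested genes were higher and 2 lower, against 11.1% and 12.9% of all tested genes. Lfng, which modifies Notch receptors, rose by 2.05 and the target Dtx1 by 1.04, while Notch1 had a difference of -0.14 that did not pass. Hes1 and Hes5 were lower, with differences of -0.45 and -0.45 (adjusted p = 0.0447 and 0.0172), and leaving out 1 array raised these to as much as 0.174 and 0.107. Of 16 interferon response genes 7 were higher and 0 lower, with rises of 1.31 for Gbp2 and 0.98 for Oasl2, a count that ran from 1 (minimum log2 difference of 1) to 12 (array SD as covariate) over the alternatives. Schlafen and Gimap genes moved unevenly: Gimap3, Slfn1, Slfn2 and Slfn5 rose by 2.39, 2.20, 1.54 and 1.09, and Gimap9 fell by 0.72. Of the adenosine and nucleotide list, P2rx7, an ATP-gated channel, fell by 2.12, Ada, adenosine deaminase, by 1.26 and Dpp4 by 0.77.

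In the respiratory chain 1 of 21 tested genes was called (Sdhb, lower with a difference of -0.42, adjusted p = 0.0477, lost in 5 of 7 fits with 1 array left out, up to 0.167). In the Bcl2 family 0 of 11 were higher (2 at an unadjusted p under 0.05) and 2 lower, against 11.1% and 12.9% of all tested genes. The 2 lower were Bmf and Bcl2l11, at -0.51 and -0.47. Neither was called without replicate 3 of the first stage or replicate 2 of the last. Bcl2 itself had means of 8.36 and 8.09 (difference -0.26, 95% interval from -0.58 to 0.05). Of 12 glycolysis genes 1 was higher and 3 lower, against the same shares of all tested genes. Pfkp rose by 1.37 while Ldhb, Slc2a3 and Pfkm fell by 1.03, 0.71 and 0.69. Of 13 sterol and fatty acid synthesis genes 2 were higher and 2 lower, near the shares of 11.1% and 12.9% of all tested genes. Each count was 1 without replicate 1 or 3 of the first stage or replicate 1, 3 or 4 of the last. Of 14 nucleolar and ribosome assembly genes 1 was called, Bop1 at 0.31, and it was not called without replicate 2 of the first stage (adjusted p = 0.213).

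The stage between the ends, CD24+CD73+, was used to place the larger changes. Of the 322 genes higher by at least 1 log2 unit, its mean was beyond the first stage, that is lower still, in 62, nearer the first stage in 130, nearer the last in 92 and beyond the last in 38. Of the 286 lower genes the counts were 74, 111, 89 and 12. Ccl5, Xcl1 and Klrb1a had made most of their rise by then: Xcl1 stood at 10.41 against 10.48 at the last stage. Nt5e had too, but this stage was sorted as CD73+, so that is no finding. Il23r, Ccr6, Abi3bp and Cysltr1 had not, with Il23r at 2.59 against 2.41 at the first stage and Ccr6 at 2.94 against 2.59. Il1r1, Ccr2 and Hlf stood below both ends, Il1r1 at 4.34 against 6.70 and 8.98. Among the falling genes Etv5, Gzma and Dntt were down by the middle stage (5.89, 7.03 and 6.13), while Kif11, Top2a, Ezh2 and P2rx7 were near their first-stage means (7.64, 8.97, 8.48 and 7.58). These positions are descriptions and were not tested. Replicate 3 of the middle stage, which enters its means, had a narrow spread of log2 values (SD 1.71).

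**Figure D4:**
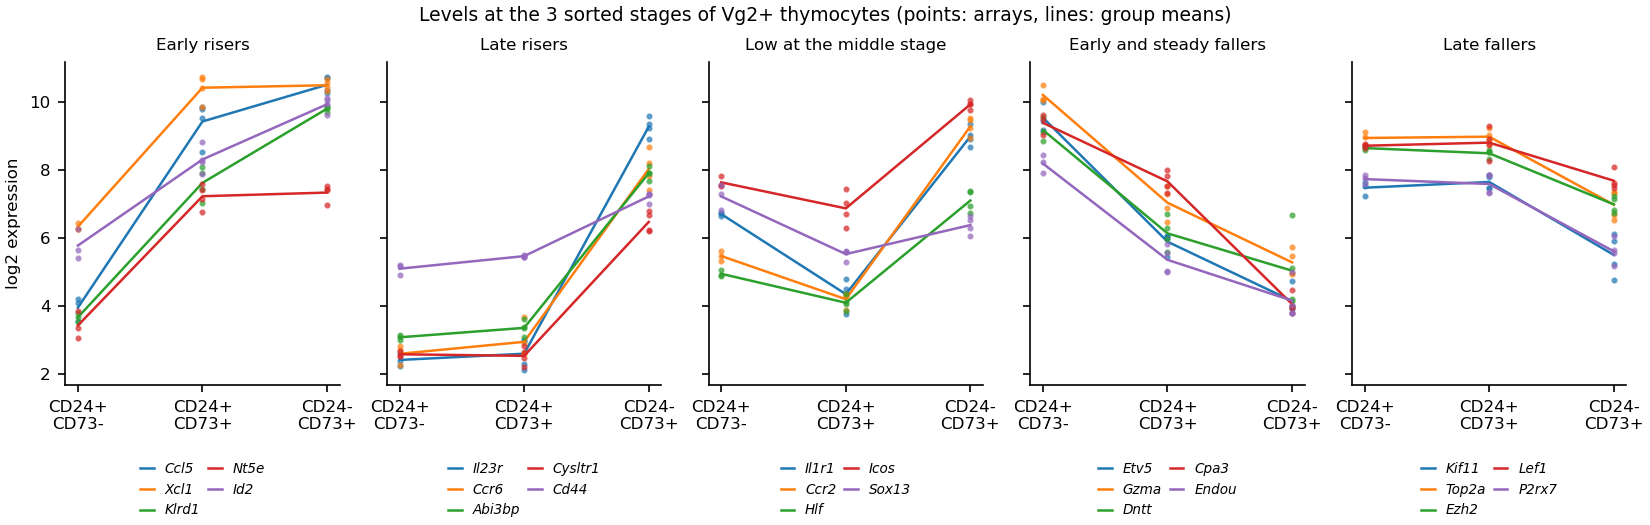
Log2 expression at the 3 sorted stages of Vg2+ thymocytes for 25 genes in 5 panels, with points for arrays (3, 4 and 4) and lines through the group means. Nt5e, among the genes shown, codes for CD73, which was used for the sort. Ccl5 and Xcl1 are near their last-stage level at CD24+CD73+ (9.42 and 10.41), Il23r and Ccr6 are not (2.59 and 2.94), and Il1r1 and Ccr2 dip to 4.34 and 4.20.

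The Vg2+ course was set beside that of Vg1.1+ thymocytes, measured on arrays of their own. Of the genes called higher in Vg2+, 474 were also higher in Vg1.1+, which is 50.2% of the Vg2+ list and 57.1% of the 830 in the Vg1.1+ list. Of those called lower, 711 were lower in both, 64.3% and 61.1% of the lists. The difference between the 2 courses passed the test in 340 genes (3.98%), with 212 more positive in Vg2+ (2.48%) and 128 more negative (1.5%). Replicate 1 of the last Vg1.1+ stage had the narrowest spread of log2 values (SD 1.61, other arrays 1.71 to 2.09). Without it 403 genes passed, 224 more positive and 179 more negative. Klrd1, Ccl5 and Gzma also passed the test in Vg1.1+, with changes of 5.73, 5.56 and -4.68. The differences between the courses of these 3 genes were 0.41 (SE 0.30), 0.99 (SE 0.38) and -0.24 (SE 0.32) and did not pass.

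Of the 16 tested genes of the interleukin-17 programme 9 differed with a more positive change in Vg2+ and 1 with a more negative change, against 2.48% and 1.5% of all tested genes. The more positive calls of Blk and Cd163l1 were each lost in 10 of 15 fits with 1 array left out. Their adjusted p rose to as much as 0.111 and 0.138. Neither gene was called in the Vg2+ course itself (differences of 0.15 and -0.28). Il23r rose by 2.05 in Vg1.1+, from a mean of 2.31 to 4.37, and the Vg2+ change exceeded this by 4.80 (SE 0.39, adjusted p = 4e-08). The excess was 4.53 for Ccr6, 3.87 for Tmem176a, 3.40 for Tmem176b and 3.43 for Il1r1. Il1r1 rose in Vg2+ and fell by 1.14 in Vg1.1+. For Il17a the excess of 0.98 did not pass (adjusted p = 0.138). Abi3bp, Socs2, Zdhhc2, Cysltr1 and Pxdc1 completed the 10 largest, at 4.17, 3.58, 3.29, 3.16 and 3.08.

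The type 2 and innate-like genes differed the other way, with 8 of 10 tested more negative in Vg2+ and 0 more positive. Il4, the gene of interleukin-4, read 3.49, 4.08 and 3.44 and then 4.93, 4.46, 4.63 and 4.21 in Vg2+, a rise of 0.89, and rose by 4.87 in Vg1.1+, so that the courses differed by -3.98 (SE 0.32, adjusted p = 3.79e-08). Fabp7, a fatty acid-binding protein, read 2.71, 2.81 and 2.63 and then 2.52, 2.76, 3.08 and 2.71 in Vg2+ and rose by 5.02 in Vg1.1+. Vdr, the vitamin D receptor, rose by 3.03 in Vg1.1+ and had a difference of -0.34 in Vg2+ that did not pass. Il17rb fell in Vg2+ and rose by 0.65 in Vg1.1+, a difference between the courses of -3.25. Cd40lg and Icos rose in both, by 4.83 and 3.91 in Vg1.1+. In the mitosis and DNA replication lists limma called 0 differences between the courses (1 and 3 genes at an unadjusted p under 0.05).

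**Figure D5:**
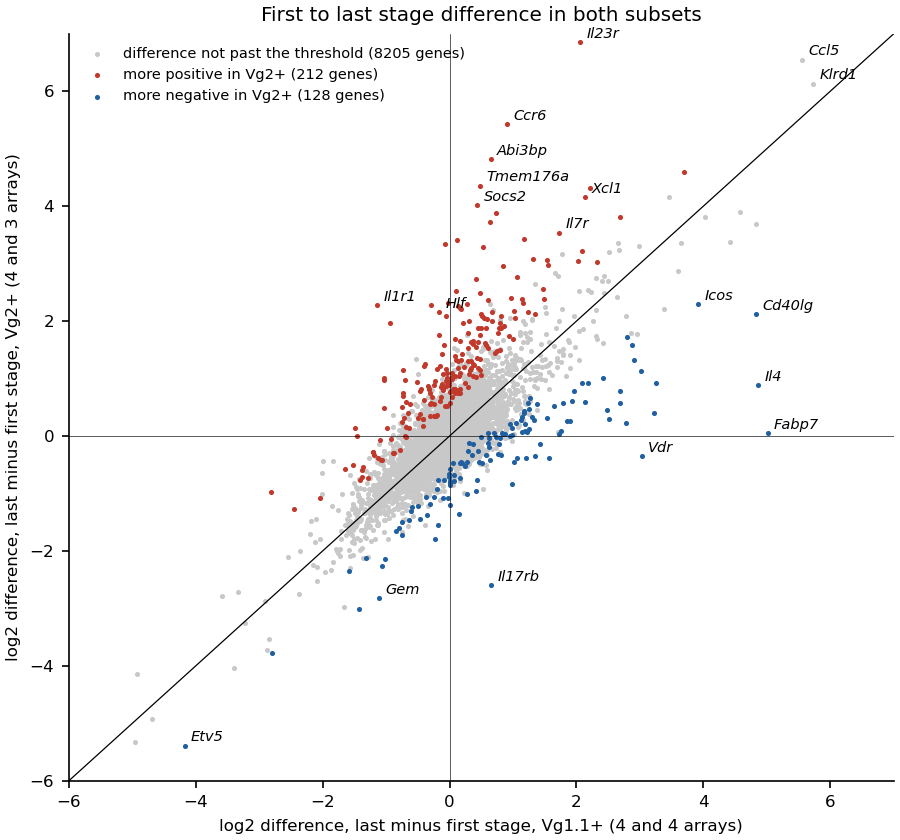
Log2 difference between the last and the first stage of each tested gene in Vg1.1+ (x axis) and Vg2+ thymocytes (y axis), with the line of equal change. Genes whose change was more positive in Vg2+ (red, 212) include Il23r, Ccr6 and Abi3bp, genes with a more negative change (blue, 128) include Fabp7, Il4 and Il17rb, and Klrd1 and Ccl5 (grey) rose in both.

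Markers of other cells that the sort could hold were read in the same arrays. In the myeloid and dendritic list 2 of 5 tested genes were higher, Ctss by 1.42 and C1qb by 0.82, and the summed level of its 9 genes went from between 8.43 and 8.71 to between 9.62 and 9.89 on the log2 scale. Ctss weighed most in that sum, at 9.65 on replicate 3 of the last stage and 9.40 on the next highest array. Cd68, H2-Aa and H2-Ab1 did not pass (-0.05, 0.50 and 0.17). The 6 genes of this list with both means under the table's median of 4.55 included Itgam, Adgre1, C1qa and C1qc, and the part of myeloid and dendritic cells in the rises of Tyrobp, Fcer1g and Lgals3 was not tested. Of the 8 mast cell markers, Cpa3 fell and the 6 genes Tpsb2, Hdc, Fcer1a, Ms4a2, Gata2 and Cma1 were under the median in both groups. Of the natural killer markers, Ncr1 and Itga2 were under the median in both groups and Eomes rose. The summed level of the 3 genes went from between 5.10 and 5.29 to between 5.94 and 6.19, and the part of natural killer cells in the rises of the killer lectin-like receptors was not tested. Among alpha-beta lineage markers Arpp21 fell by 2.88, Cd4 was under the median in both groups, and Cd8a, Cd8b1 and Ptcra did not pass (0.24, -0.14 and -0.07). Cd79b, a B-cell marker, was higher by 0.97 (adjusted p = 0.0172, and 0.0849 at its highest when 1 array was left out), while Cd79a and Ms4a1 were under the median, and the summed level of the 5 B-cell genes went from between 7.73 and 8.06 to between 8.37 and 8.92. The erythroid marker Alas2 had a difference of 0.03, and thymic epithelial Epcam was lower with a difference of -0.67 (adjusted p = 0.0089, and 0.0728 at its highest when 1 array was left out).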

How the data were processed

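Total RNA of sorted thymocytes was labelled and hybridised to 1-colour arrays, 22 in all. The authors deposited log2 expression values per probe set, made with RMA in oligo, per the submitters' processing notes; RMA fits background, quantiles and probe effects over all arrays together, and neither a version nor a genome build for the probe sets is given in the sources used here. The number of arrays limits the precision.

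From these values, probe sets with 1 gene symbol (14996 of 16755; 1019 had several and 740 none) were reduced to 14860 genes, keeping the probe set with the highest mean where a gene had several (135 genes). Genes above the median of the table (4.55) on at least 3 arrays were tested, 8545 in all. All 22 arrays entered a single limma fit (version 3.58.1, R version 4.3.3) that gave each group its own mean, with Benjamini-Hochberg adjustment over all tested genes, two-sided, and a threshold of 0.05. The difference between the Vg2+ and Vg1.1+ courses was a contrast in the same fit. The procedure was tested on simulated data. Promoters were matched by symbol to RefSeq (GRCm38.p6) and searched in Python 3.11.15.

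The genes named were, by rule, the 15 largest rises and 15 largest falls without overlap between groups (predicted genes left out), up to 2 risers and 2 fallers of each gene list, the 10 largest differences between subsets in each direction, and a fixed set of known genes. Other genes named complete their list and were chosen after their values were seen. The comparison and the gene lists were chosen with earlier results of these data known. Alternatives tried were a replicate block, other filters, other sets of arrays, array weights, array spread as a covariate, cyclic loess, moderation with trend, a minimum difference, all probe sets, and each array left out.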

Additional observations from a re-analysis of the deposited data

Results flagged for a closer look

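One array stood apart from the other 3 of the last stage in 11 of 128 named genes, where chance gives about 5% of groups. In replicate 1 the genes were Anxa1 at 4.20 (nearest other array 6.16), Cd44 at 7.01 (nearest other array 7.27), Epcam at 5.59 (nearest other array 4.93) and Il18r1 at 9.47 (nearest other array 9.89). In replicate 2 the genes were Acaca at 4.91 (nearest other array 5.61), Il17a at 5.47 (nearest other array 4.71), Klf2 at 6.37 (nearest other array 6.04), Lig4 at 3.04 (nearest other array 4.02) and Sqle at 5.21 (nearest other array 5.15). In replicate 3 the genes were Ctss at 9.65 (nearest other array 9.40) and Etv5 at 4.72 (nearest other array 3.99). Replicate 1 lay on the side of the first stage in each of its 4 genes.

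The difference between the Vg2+ and the Vg1.1+ course passed the test in 340 genes, among them 46 named genes. Log2 differences of at least 3 with a more positive change in Vg2+ were those of Il23r (4.80), Ccr6 (4.53), Abi3bp (4.17), Tmem176a (3.87), Socs2 (3.58), Il1r1 (3.43), Tmem176b (3.40), Zdhhc2 (3.29), Cysltr1 (3.16) and Pxdc1 (3.08). Those from 2 to 3 were Hlf (2.32), Anxa1 (2.25), Nfil3 (2.12), Jaml (2.09), Tnfsf8 (2.03), Xcl1 (2.02) and Bhlhe40 (2.01). Smaller positive differences were those of Cd79b (1.68), Klf6 (1.60), Cish (1.30), C1qb (1.28), Ccr2 (1.13), Sqle (1.01), Il18r1 (0.90), Gimap3 (0.90) and Cd44 (0.77).

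With a more negative change in Vg2+, differences of at least 2 in size were those of Fabp7 (-4.97), Il4 (-3.98), Vdr (-3.37), Il17rb (-3.25), H19 (-2.82), Cd40lg (-2.72), Flrt2 (-2.56), Trpm6 (-2.33), Ntrk3 (-2.21) and Il13 (-2.11). Smaller ones were those of Gem (-1.71), Icos (-1.62), Myb (-1.58), Ptger4 (-1.50), Abca1 (-1.41), Tnfsf11 (-1.37), Etv5 (-1.22), Slc15a1 (-0.98), Sh2d1a (-0.98) and Slc2a3 (-0.70). Of the 46 genes, 38 stayed past the threshold without each of 15 arrays in turn, and the highest adjusted p with 1 array left out was over the threshold for Anxa1 (0.0578), Cd79b (0.0607), Etv5 (0.0917), Gimap3 (0.126), Il18r1 (0.0585), Klf6 (0.0588), Slc15a1 (0.055) and Slc2a3 (0.124).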

How the results depend on the processing

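The number of genes that differed between first and last stage in Vg2+ ran from 1588 to 2870 over the alternatives other than a minimum difference, against 2051. The main fit called more genes lower (1106) than higher (945). This balance turned with cyclic loess (1166 higher, 1114 lower) and with the array SD as covariate (1373 higher, 1333 lower). A minimum log2 difference of 1 left 608 genes, 322 higher and 286 lower. Leaving out 1 array in turn gave 1593 to 1979 genes, 726 to 899 higher and 845 to 1136 lower. Of 115 called named genes 95 stayed past the threshold in each of 18 alternatives, and of 261 called list members and named genes 217 did without each of 7 arrays in turn.

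The main fit did not pair arrays by replicate number. Deviations of same-numbered arrays of the first and last stage correlated at 0.02, -0.15 and -0.20, and 6 of 51 same-numbered pairs over all groups were above 0.1. With the replicate block 1660 genes differed (774 higher, 886 lower), and the difference between subsets gave 200 genes (125 more positive and 75 more negative in Vg2+) in place of 340 (212 and 128).

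The difference between subsets moved more with other settings. It gave 919 genes (506 and 413) with array weights, 596 with the array SD as covariate (278 more negative), 157 (100 and 57) from arrays numbered 1 to 3, and 181 (122 and 59) with the minimum difference. More negative genes numbered 209 without the 2 arrays of narrowest spread and 72 with the stricter filter. Leaving out 1 array gave 228 to 403 genes, 134 to 224 more positive (134 without replicate 2 of the first Vg2+ stage) and 91 to 179 more negative. The cause was not tested.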
